A study of Mus musculus with 10 samples.

Results

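The genes described here encode enzymes of threonine, glycine, serine and folate metabolism and of the methionine cycle in mouse embryonic stem cells. They are 10 genes (Tdh, Gcat, Gldc, Shmt1, Shmt2, Mthfd1, Mthfd2, Mat2a, Ahcy and Phgdh) of the 55487 in each table, chosen by name and read by Ensembl gene ID. The names matched 11 gene records, because Gcat is the name of a pair of overlapping records. The record ENSMUSG00000006378 was taken as Gcat, and the other is described with it.

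The series holds 10 samples of E14, a mouse embryonic stem cell line, grown in medium with 15% fetal bovine serum, LIF, 3 µM of a GSK inhibitor and 1 µM of a MEK1/2 inhibitor. Its 7 R-loop mapping samples, made with MapR or BisMapR and including an RNase A control and a GST-MNase control, were not analysed here. The 3 RNA-seq replicates are total RNA of E14 cells with no further treatment given in the labels, from which ribosomal RNA was removed before strand-specific library preparation. All 3 belong to one group, so no difference between conditions could be tested. Levels are given with the spread over the libraries, which may be technical, since the labels do not say whether the replicates were separate cultures.

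Threonine dehydrogenase and the ligase encoded by Gcat convert threonine to glycine and acetyl-CoA in mitochondria, a route that mouse embryonic stem cells are known to depend on. Serine, made from a glycolytic intermediate by Phgdh and its partners, and glycine pass a carbon unit to folate through the serine hydroxymethyltransferases and the glycine cleavage system. Folate-bound carbon is used for purines, thymidylate and methionine. Methionine is turned into S-adenosylmethionine, the donor for DNA and histone methylation, and the product of each methylation is cleared by Ahcy.

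Library totals ran from 5787357 to 11420425 estimated counts. At these depths a floor of 3 counts corresponds to 0.263 to 0.518 CPM, which takes each count relative to its library total with no regard to gene length. Levels between genes are given in deposited TPM, which is also scaled by effective length, the number of positions at which a fragment can start. Genes with an effective length under 100 nt held 60.3% to 65.8% of TPM in the 3 libraries, so TPM of all other genes depends on them. Replicate 1 had the highest TPM for 81.9% of the 11000 genes with a mean TPM of at least 1. All 7 pluripotency markers had a mean TPM of at least 1, with a summed level of 452 to 622 TPM. Of the fibroblast feeder markers 1 of 6 (Thy1) did so, with a summed level of 1.24 to 3.37 TPM and 0 counts for Col3a1, Postn and Lum in every library. Endoderm markers reached it in 0 of 5 (summed 0.30 to 0.75 TPM), mesoderm markers in 0 of 4 (0.090 to 0.31 TPM) and neural markers in 1 of 4 (Tubb3; 10.3 to 15.3 TPM).

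The level of Ahcy cannot be read from its own row, because of a near-identical gene. Gm4737 (ENSMUSG00000048087, GRCm38 chromosome 16, 46152985 to 46155077, minus strand) is annotated as protein-coding with 1 exon, and Ahcy (ENSMUSG00000027597, chromosome 2, 155059310 to 155074497, minus strand) has 10 exons in its longest coding transcript. Over 2083 aligned bases the transcripts differed at 6 positions and had no gap, an identity of 99.7%. The 4 differences inside the coding part, with positions counted from 1 at the 5′ end of the Ahcy transcript and the Ahcy base first, were C564T, G579A, C1155T and C1173T. Outside the coding part the transcripts differed at A1712T and G1716T. Only reads that cross a differing position or the unaligned ends separate the genes. The stretches below, from the GENCODE vM21 transcripts on GRCm38, show the 4 coding differences. Capitals mark the bases that differ. The first Ahcy stretch lies in chr2:155064884-155065553 and crosses an exon junction, and the first Gm4737 stretch is chr16:46154525-46154584.
Ahcy: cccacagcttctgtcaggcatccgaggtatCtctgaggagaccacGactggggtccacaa
Gm4737: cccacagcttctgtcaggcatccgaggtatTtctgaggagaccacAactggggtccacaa
The second pair is chr2:155062237-155062296 for Ahcy and chr16:46153934-46153993 for Gm4737, all 4 stretches being on the minus strand.
Ahcy: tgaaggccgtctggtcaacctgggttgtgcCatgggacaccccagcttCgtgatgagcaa
Gm4737: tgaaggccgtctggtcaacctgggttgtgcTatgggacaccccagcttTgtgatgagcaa
The longest run with no difference was 575 bases. Outside the alignment the Ahcy transcript has 41 bases at its 5′ end and 419 at its 3′ end. A processed pseudogene, Gm9826, also matched Ahcy, with an identity of 99.2% over 1299 bases. It had 5.23, 1.81 and 0 estimated counts in replicates 1, 2 and 3.

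Ahcy had 288, 147 and 184 estimated counts in replicates 1, 2 and 3, and Gm4737 had 4722, 2861 and 2727. In TPM, Ahcy was at 5.44, 4.65 and 4.89, and Gm4737 at 89.0, 77.4 and 73.3. The copy was thus the higher of the pair in every library, by 16.4, 16.7 and 15.0 times in replicates 1, 2 and 3. Ahcy took 5.75% of the counts of the pair in replicate 1, with a Wilson 95% interval of 5.14% to 6.43%. Its share was 4.89% (interval 4.17% to 5.72%) in the second library and 6.32% (interval 5.49% to 7.26%) in the third. These intervals cover counting error only and not the division of shared reads between the genes, which the estimator made. The summed level of both was 94.5, 82.1 and 78.2 TPM, a mean of 84.9 ± 8.50 (SD, n = 3). The sum lay above the range of every member, whereas Ahcy alone was last or next to last in each library. Which of the genes the shared reads came from was not tested.

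**Figure D1:**
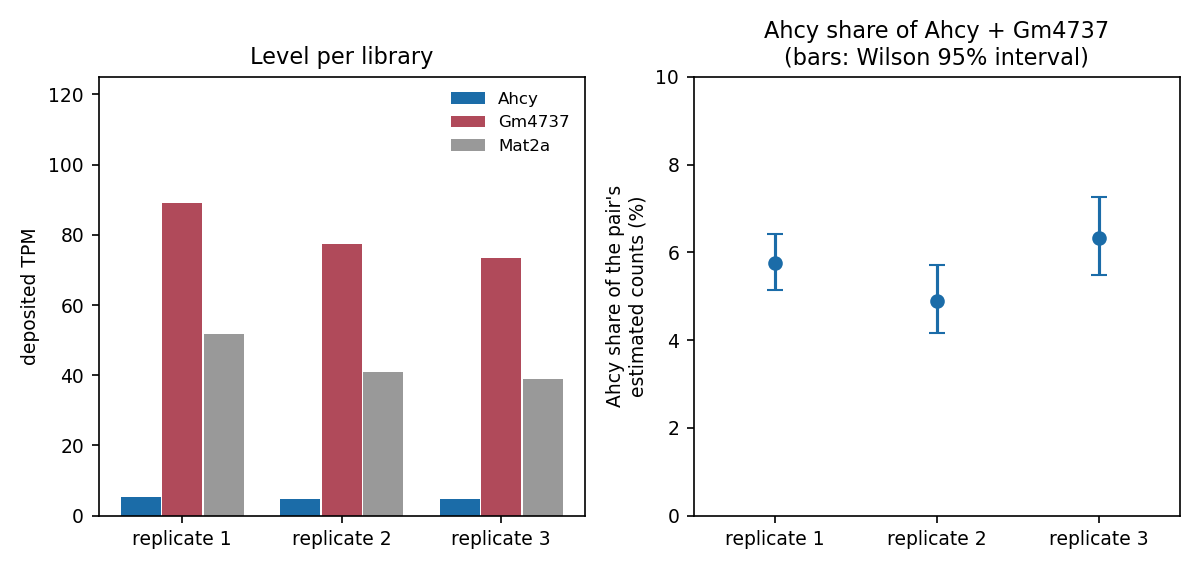
Left, deposited TPM of Ahcy, its near-identical copy Gm4737 and Mat2a in each RNA-seq replicate (bars start at 0). Right, the Ahcy share in percent of the estimated counts of Ahcy and Gm4737, with Wilson 95% intervals; Gm4737 lies above Mat2a and Ahcy far below it in all 3 libraries, and the Ahcy share runs from 4.89% to 6.32%.

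All 10 members had a mean TPM of at least 1, which 19.8% of all genes and 44.1% of protein-coding genes reached. Their median log2(TPM + 1) was 5.24 ± 0.30 (SD, n = 3), and that of the 11000 genes with a mean TPM of at least 1 was 2.70 ± 0.28 (SD, n = 3). The difference within a library was 2.54 ± 0.025 (SD, n = 3). Among the 9683 protein-coding genes at that limit, Tdh ranked 395, the members from Shmt1 to Mthfd1 567 to 634, Mthfd2 791, Phgdh 969 and Gcat 1437. Gldc at 4704 and Ahcy at 5306 lay near the middle.

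**Figure D2:**
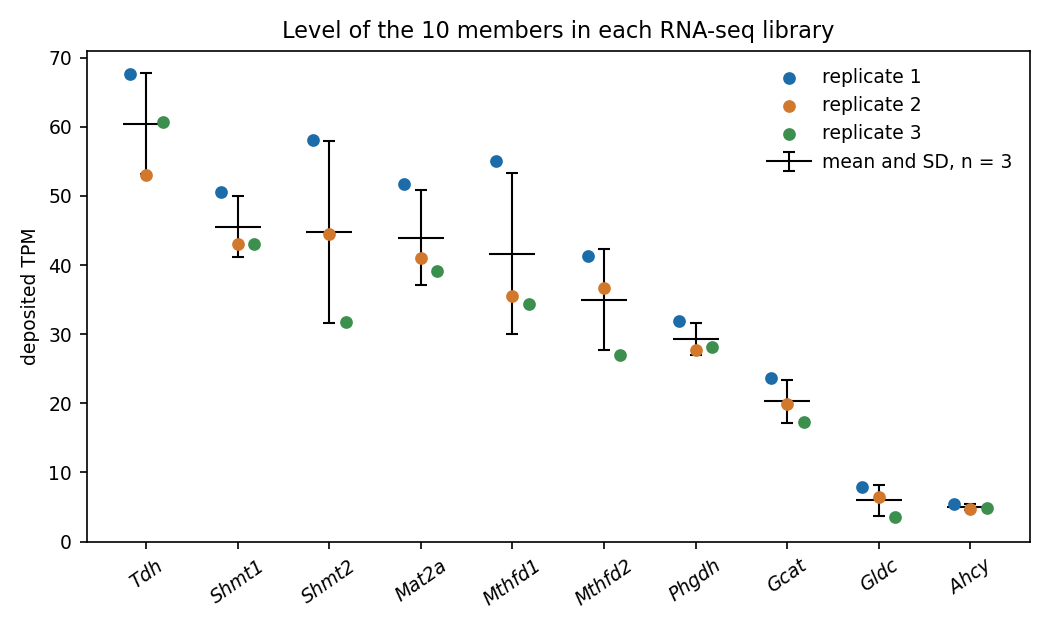
Deposited TPM of each member in replicates 1, 2 and 3 (points) with the mean and SD (black, n = 3), ordered by mean. Tdh is highest at 53.0 to 67.7 TPM, 5 members have means from 34.97 to 45.5 TPM, and Gldc and Ahcy lie under 8 TPM in every library.

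Threonine breakdown was led by Tdh (ENSMUSG00000021953, chromosome 14, 63492347 to 63509092, minus strand), which carries out its first step. Tdh had 67.7, 53.0 and 60.7 TPM in replicates 1, 2 and 3, from 2795, 1578 and 1708 estimated counts. In TPM it ranked first of the 10 in every library, and its range did not overlap that of Shmt1, the next in the order. Gcat (ENSMUSG00000006378, chromosome 15, 79030874 to 79038353, plus strand), the ligase that splits the Tdh product into glycine and acetyl-CoA, had 23.6, 19.9 and 17.3 TPM. In TPM it ranked eighth in each library, below all values of Phgdh and above all of Gldc. In CPM, which is not scaled by length, its level of 56.6 ± 4.67 overlapped that of Gldc, 58.6 ± 14.4 (SD, n = 3 each). The Tdh to Gcat ratio was 2.87, 2.66 and 3.51 within the libraries, a mean log2 ratio of 1.58 ± 0.21 (SD, n = 3), higher in 3 of 3. From counts without length scaling the mean log2 ratio was 2.21.

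The second record named Gcat (ENSMUSG00000116378, chromosome 15, 79030901 to 79042531, plus strand) shares 1132 exonic bases with the first. It had 59.5, 0 and 73.5 estimated counts in replicates 1, 2 and 3, against 594, 397 and 325 in the first. Replicate 2 thus assigned all counts of the pair to 1 record. The sum of both was 25.0, 19.9 and 19.7 TPM, and with it the log2 ratio of Tdh to Gcat was 1.49 ± 0.11 (SD, n = 3). The other genes of the threonine and serine breakdown list were the dehydratase genes Sds, with 1, 1 and 0 counts, and Sdsl, with 0 counts in every library, all at or under the floor of 3 counts.

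Gldc (ENSMUSG00000024827, chromosome 19, 30098447 to 30175429, minus strand) encodes the decarboxylase of the glycine cleavage system, which passes carbon from glycine to folate. Gldc had 7.91, 6.39 and 3.52 TPM in replicates 1, 2 and 3, from 768, 431 and 243 estimated counts. Replicate 3 was the low library, also in CPM, at 67.2, 66.6 and 42.0. Tdh exceeded Gldc by 8.56, 8.30 and 17.2 times in the 3 libraries, a mean log2 ratio of 3.42 ± 0.60 (SD, n = 3). Without replicate 3 the mean log2 ratio was 3.08, and from counts without length scaling it was 2.18. The other subunits were all at a mean TPM of at least 1. Amt, the aminomethyltransferase, had 16.2 ± 3.41 TPM, Gcsh, the lipoyl carrier protein, 13.6 ± 1.64 TPM, and Dld, the dehydrogenase shared with other complexes, 8.09 ± 1.48 TPM (SD, n = 3 each). Gldc was the lowest of the 4 subunits in every library.

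Phgdh (ENSMUSG00000053398, chromosome 3, 98313170 to 98339990, minus strand) catalyses the first step of serine synthesis. It had 31.9, 27.7 and 28.2 TPM in replicates 1, 2 and 3, the smallest relative spread in TPM among the members (CV 7.91%). Psat1, the aminotransferase of the next step, stood higher in each library, at 129.7, 103.1 and 100.0 TPM. Psph, the phosphatase that completes the pathway, had 23.3, 21.7 and 27.2 TPM, below Phgdh in each library. Phgdh also had the most copy records among the members, 23 with an identity of 78.5% to 98.7%. Only 4 of them had counts, which together came to 1.32% of those of Phgdh, led by Gm7901 with 11.9, 10.01 and 4.68 estimated counts.

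The serine hydroxymethyltransferases, which move a carbon unit from serine to folate, did not differ in TPM beyond their spread. Cytosolic Shmt1 (ENSMUSG00000020534, chromosome 11, 60788104 to 60811718, minus strand) had 50.6, 43.0 and 43.0 TPM in replicates 1, 2 and 3. Mitochondrial Shmt2 (ENSMUSG00000025403, chromosome 10, 127517123 to 127522444, minus strand) had 58.1, 44.5 and 31.7 TPM. Shmt2 was thus the higher in replicates 1 and 2 and the lower in replicate 3. The mean log2 ratio of Shmt2 to Shmt1 was -0.065 ± 0.33 (SD, n = 3; exact two-sided sign-flip permutation p = 1, adjusted p = 1). It turned to 0.12 without replicate 3. From counts without length scaling it was 0.80 ± 0.31 (SD, n = 3), with Shmt2 higher in every library.

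The bifunctional and trifunctional folate dehydrogenases gave a similar picture in deposited TPM. Mthfd1 (ENSMUSG00000021048, chromosome 12, 76255298 to 76319803, plus strand), the cytosolic trifunctional enzyme, had 55.0, 35.6 and 34.4 TPM in replicates 1, 2 and 3. Mthfd2 (ENSMUSG00000005667, chromosome 6, 83305691 to 83325908, minus strand), its mitochondrial counterpart, had 41.2, 36.7 and 26.9 TPM. Mthfd2 was lower in replicates 1 and 3 and slightly higher in replicate 2, with a mean log2 ratio to Mthfd1 of -0.24 ± 0.25 (SD, n = 3; exact two-sided sign-flip permutation p = 0.5, adjusted p = 0.625). From counts without length scaling, a planned setting, the mean log2 ratio was 0.043 ± 0.19 (SD, n = 3). With effective lengths held at their mean over the libraries, a setting chosen after seeing the data, Mthfd2 was lower in every library. The mean log2 ratio was then -0.23 ± 0.19 (SD, n = 3; exact two-sided sign-flip permutation p = 0.25).

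The high TPM of Mthfd1 in replicate 1 went with a shorter effective length. Its CPM was 163.9, 164.2 and 173.5 in replicates 1, 2 and 3, a CV of 3.25%, while its TPM had a CV of 27.8%. The effective length in the tables was 1255, 1573 and 1537 nt in the same order. With each gene's effective length held at its mean over the libraries, recalculated TPM of Mthfd1 was 45.7, 44.2 and 31.2, a CV of 19.8%. The same recalculation raised the CV of every other member, that of Mat2a from 15.6% to 21.0%. For Gldc the effective length was 3583, 3554 and 3634 nt, and its CV was 24.6% in CPM and 37.5% in TPM. For Mat2a the effective length was 2499, 2519 and 2464 nt, and its CV was 2.11% in CPM and 15.6% in TPM. Whether transcript use of Mthfd1 differed between the libraries was not tested.

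Mat2a (ENSMUSG00000053907, chromosome 6, 72432799 to 72439558, minus strand), the S-adenosylmethionine synthetase of most tissues, had 51.8, 41.0 and 39.1 TPM in replicates 1, 2 and 3. Its estimated counts of 3508, 1959 and 1827 were the highest of the members in each library, and its CPM varied least (CV 2.11%). The liver form Mat1a had 0, 2 and 0 counts, under the floor of 3, and the regulatory subunit Mat2b 14.1 ± 0.135 TPM (SD, n = 3). The mean log2 ratio of Ahcy alone to Mat2a was -3.13 ± 0.13 (SD, n = 3), with Ahcy lower in 3 of 3 libraries. With Gm4737 added to Ahcy the mean log2 ratio was 0.96 ± 0.078 (SD, n = 3), higher in 3 of 3, so the direction of this comparison depends on the copy.

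**Figure D3:**
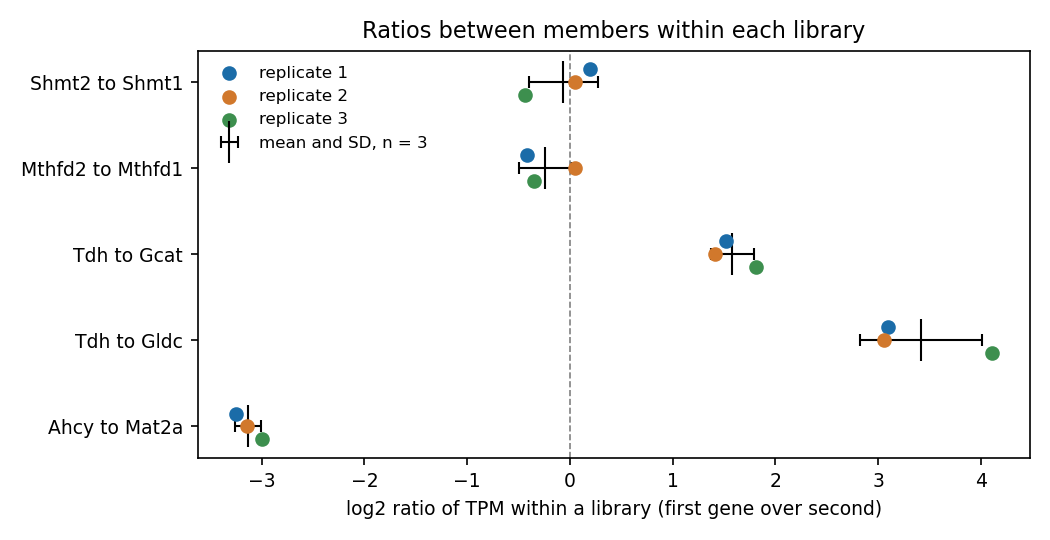
Log2 ratio of deposited TPM between pairs of members within each library (points), with the mean and SD (black, n = 3); the dashed line marks equal levels. Shmt2 to Shmt1 and Mthfd2 to Mthfd1 lie on both sides of 0, Tdh lies above Gcat and Gldc in every library, and Ahcy without Gm4737 lies below Mat2a.

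Of the 5 ratios, those of Tdh to Gcat, Tdh to Gldc and Ahcy to Mat2a had the same sign in 3 of 3 libraries. Each then had an exact two-sided sign-flip permutation p of 0.25, the smallest that 3 libraries allow, and an adjusted p of 0.417 over the 5 ratios. The design therefore cannot reach 0.05 for any ratio. In the order of mean TPM, 3 of 9 neighbour pairs kept their order in all 3 libraries with ranges that did not overlap: Tdh above Shmt1, Phgdh above Gcat, and Gcat above Gldc. The neighbours from Shmt1 through Shmt2, Mat2a, Mthfd1 and Mthfd2 to Phgdh, and Gldc and Ahcy, exchanged places between libraries. Over all 45 pairs, 36 kept their order in every library and 31 had ranges that did not overlap. These counts include the pairs with Ahcy alone, which came first in the order of mean TPM once Gm4737 was added.

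No member passed the test for more variation between replicates than genes of similar abundance showed. In edgeR's goodness-of-fit test 0 of 10 members passed a Benjamini-Hochberg adjusted p under 0.05, where 1.84% of 12577 genes did, and 0 of 10 had an unadjusted p under 0.05, where 6.96% did. With DESeq2 size factors in place of TMM normalization the counts of members were also 0 and 0. With a correction for gene length in each library they were again 0 and 0, where 193 of 12577 genes passed the adjusted limit. The biological coefficient of variation over all genes was 0.162, and 0.138 with the length correction. The smallest member p was that of Ahcy, at 0.143 unadjusted (edgeR), from counts that depend on the division of reads with Gm4737.

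All 10 members had their highest TPM in replicate 1, as did 81.9% of genes with a mean TPM of at least 1. In CPM scaled by TMM normalization, 7 of 10 were highest in replicate 3, as were 40.6% of the 12577 genes tested. The deviation of replicate 3 from the mean of the libraries, on the log2 scale of TMM-scaled CPM, was highest for Ahcy at 0.39, Phgdh at 0.31 and Tdh at 0.30. It was lowest for Gldc, at -0.33, and Shmt2, at -0.17. The Ahcy value depends on how shared reads were divided with Gm4737, which deviated by 0.21. Gldc was the longest member, with a length of 3720, 3702 and 3767 nt in the 3 tables. The Spearman correlation of this deviation with length was -0.467 over the 8296 genes averaging 100 counts or more and -0.27 over the 10 members, given as descriptions across genes that share libraries. For the deviation of replicate 1 it was 0.463 over those genes and 0.467 over the members. For replicate 2 it was 0.224 and 0.236. Apart from the goodness-of-fit test with a length correction, the part of length in the values of the members was not tested.

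**Figure D4:**
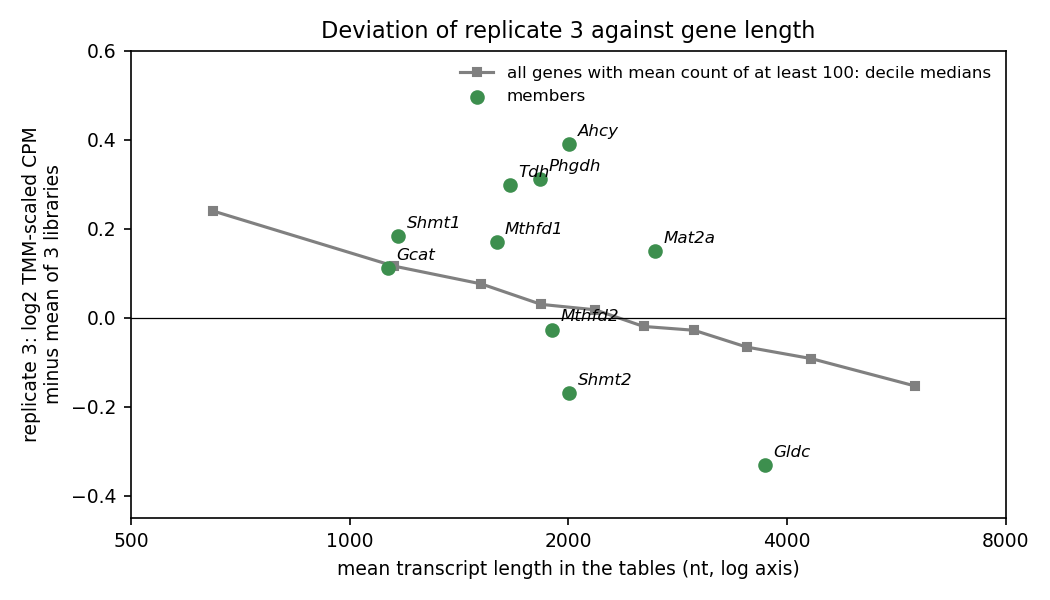
Deviation of replicate 3 (log2 TMM-scaled CPM minus the mean of the 3 libraries) against mean transcript length in nt (log axis), for the members (green) and as decile medians over 8296 genes (grey). Decile medians fall from 0.24 to -0.15. Gldc lies lowest of the members at -0.33 and Ahcy, without Gm4737, highest at 0.39.

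Around the members, 40 of 47 genes of the pathway lists had a mean TPM of at least 1, 30 of them not members. Of the 42 tested, 0 varied between replicates by the goodness-of-fit test (edgeR, adjusted p under 0.05), and 0 had an unadjusted p under 0.05. The cytosolic folate list had 10 of 11 genes at the limit, with a median log2(TPM + 1) of 2.83 ± 0.19 (SD, n = 3). Beside Shmt1 and Mthfd1 its highest were Tyms, thymidylate synthase, at 44.6 ± 4.14 TPM, and Gart and Atic of purine synthesis, at 42.5 ± 11.4 and 17.6 ± 2.42 TPM (SD, n = 3 each). Ftcd, which feeds histidine carbon into folate, had 0 counts in every library, below the floor of 3.

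The mitochondrial folate list had 5 of 7 genes at the limit, with a median of 2.26 ± 0.22 (SD, n = 3). Mthfd2 exceeded its paralogue Mthfd2l in every library, at 34.97 ± 7.31 against 0.737 ± 0.146 TPM. Mthfd1l, the mitochondrial formate-releasing synthetase, had 11.2 ± 2.93 TPM, and Slc25a32, the folate carrier of the inner membrane, 3.82 ± 0.730 TPM. Aldh1l2, which oxidises formyl-folate to carbon dioxide, was under the limit at 0.597 ± 0.208 TPM, while its cytosolic paralogue Aldh1l1 had 2.31 ± 0.455 TPM (SD, n = 3 each).

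In the methionine cycle list 10 of 12 genes were at the limit, with a median of 2.40 ± 0.17 (SD, n = 3). Mtr, methionine synthase, had 5.50 ± 1.21 TPM and its reductase Mtrr 3.71 ± 0.760 TPM. Bhmt, which remakes methionine from betaine, was detected in each library at 4.65, 2.90 and 3.33 TPM. The other hepatocyte markers gave 1.36, 0.95 and 1.09 TPM for Gnmt, at most 2 counts for Mat1a and 0 counts for Alb in every library, with a summed level of the 4 genes of 3.88 to 6.01 TPM. Ahcyl1 and Ahcyl2, relatives of Ahcy, had 15.0 ± 3.92 and 7.79 ± 2.76 TPM (SD, n = 3 each). Of the transsulfuration and polyamine list 6 of 6 genes were at the limit, led by Odc1, ornithine decarboxylase, at 80.9 ± 13.4 TPM. In that list Cth had 21.6 ± 3.23 TPM and Cbs, which precedes it in the route from homocysteine to cysteine, 5.44 ± 0.452 TPM (SD, n = 3 each). Psat1 and Odc1 were the pathway genes that exceeded Tdh in all 3 libraries.

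**Figure D5:**
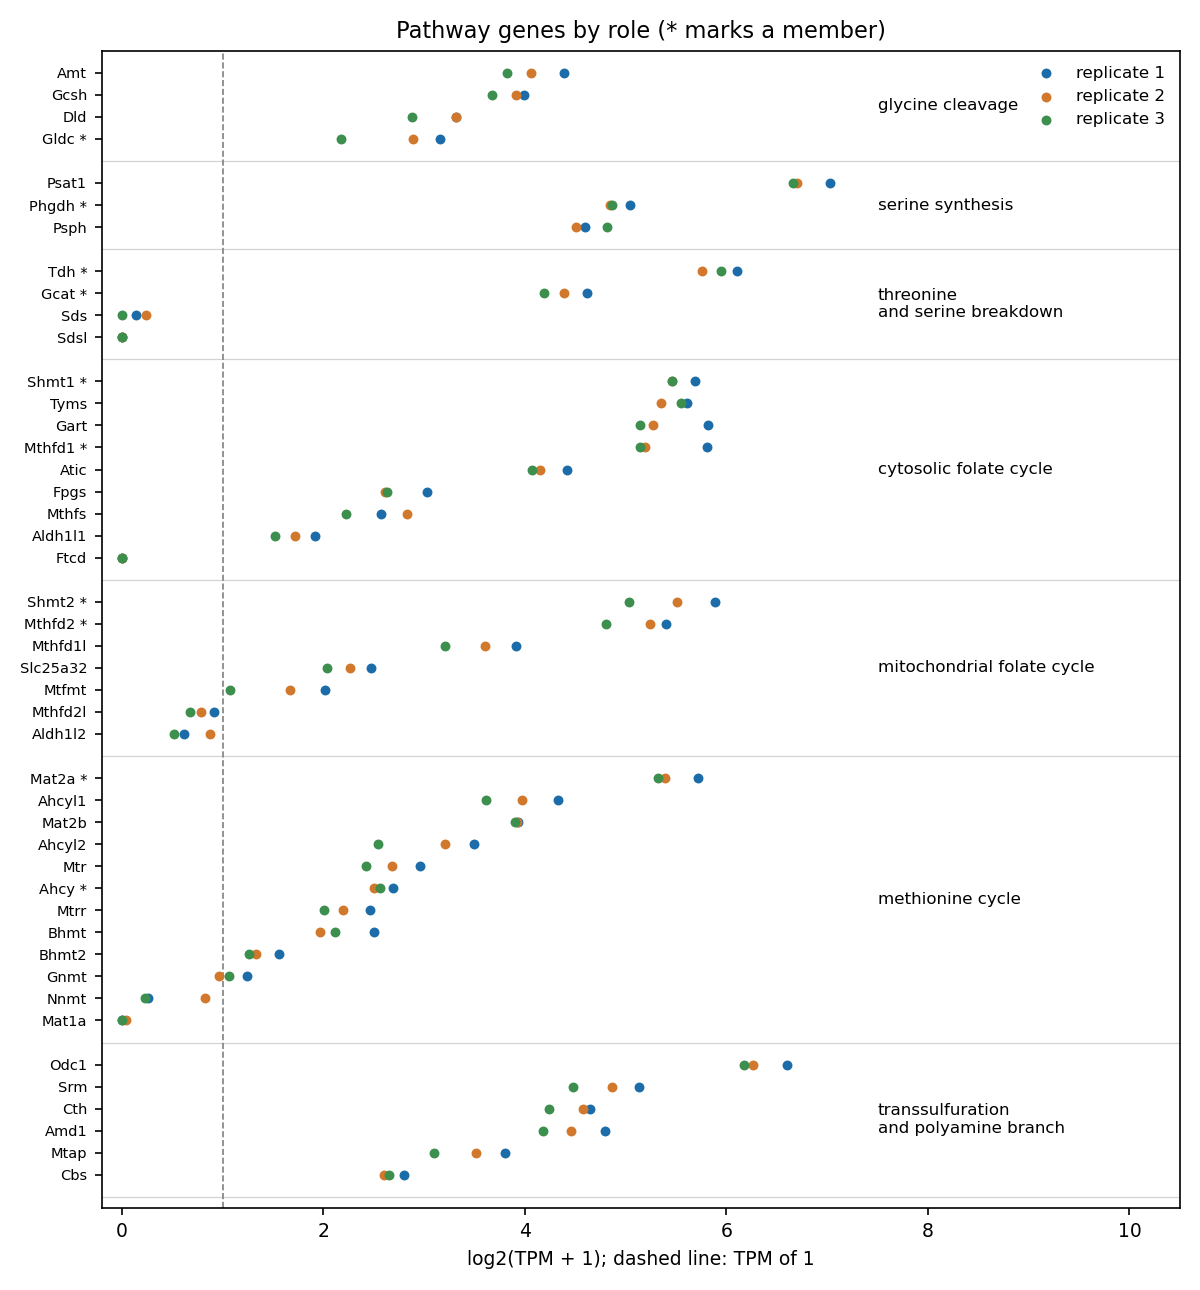
Log2(TPM + 1) of 45 pathway genes in each replicate (points), grouped by list; an asterisk marks a member and the dashed line a TPM of 1. Psat1 and Odc1 lie above Tdh, and 7 genes, among them Sdsl, Ftcd and Mat1a, have a mean TPM under 1.

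Records that could share reads with the members were counted for all 10. Copy records, with at least 200 aligned nt and 50% of their length matching a member, existed for 6 members, 32 in all, of which 8 had counts. The only such record for Gcat was its overlapping second record, which is not a separate copy and is among those with counts. The Tdh copy Gm13929, with an identity of 97.1%, had 6.67, 3.34 and 0 estimated counts, and Shmt1, Mthfd1, Mthfd2 and Gldc had no such copy. Exons of 4 members overlapped an opposite-strand gene that had counts. The largest shares were 11.3% of the exonic bases of Mat2a, with Particl (8, 7 and 8 counts), and 4.74% of those of Shmt1, with Smcr8 (1616, 880 and 757 counts). Whether the counting used strand is not given in the sources used here, so reads in these stretches are uncertain.

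Promoter windows of 300 bases across the start site (RefSeq, GRCm38.p6) were matched for 9 of the 10 members, all but Tdh. Their GC content had a median of 59.0% and ran from 42.7% for Shmt2 to 67.0% for Mat2a, against a median of 61.0% for the 10081 windows of genes with a mean TPM of at least 1. They held 10 to 34 CG dinucleotides, a median of 15 against 21. On either strand, CCAAT was found in 7 of 9 windows, where 39.5% of the windows of expressed genes held it, and GGGCGG in 6 of 9, against 64.9%. Mthfd2 held CCAAT 3 times. CACGTG was found in 1 of 9 (Gcat), against 10.6%, and TATAAA in 2 of 9 (Mat2a and Phgdh), against 6.38%. TGACGTCA (3.40% of expressed windows) and TGATGNAA (2.13%) were in none of the 9 windows. None of these words contains another, and a match is a description of sequence only.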

How the data were processed

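Gene expression was measured by RNA-seq in 3 replicates, grouped and numbered by their titles. The submitters' processing notes name STAR, RSEM and mm10; versions, annotation release and strand setting are not given in the sources used here. Per the file headers, the authors deposited an estimated count (expected count), a TPM, a length and an effective length for each gene; FPKM was not used.

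Names and coordinates are from GENCODE vM21 (GRCm38), matched for 55227 of 55487 IDs; 260 did not match. Estimated counts were rounded for edgeR 4.0.16 (R 4.3.3), with TMM normalization, filterByExpr, an intercept and trended dispersion; a goodness-of-fit p was adjusted over all genes tested by the Benjamini-Hochberg method. DESeq2 1.42.0 gave size factors for an alternative. The test was also run on simulated counts, and no result of that run is used here. Ratios of TPM used no pseudocount and an exact sign-flip permutation test; list medians used log2(TPM + 1), a pseudocount of 1. Copies were sought with BLAST 2.17.0 and differences listed with Biopython 1.88. Tables were handled with pandas 2.3.3 and numpy 2.4.6 under Python 3.11.15, tests with scipy 1.17.1 and figures with matplotlib 3.10.9. Counting error is all that floors and intervals describe, because reads copied by PCR do not stand for separate molecules.

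The members and lists were chosen with earlier results of these data known. Genes named in the text are the members, the genes of 7 pathway lists, the cell type markers, and up to 5 copies of members; overlapping partners were named after their values were seen. No gene was named for a pattern like a member's, since 3 replicates of 1 condition give none. Of the cytosolic folate list, 2 genes enter the counts and medians but are not reported here.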

Additional observations from a re-analysis of the deposited data

How the results depend on the processing

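Each of 20 results was computed again with other settings, 112 values in all, 10 of them from settings chosen after seeing the data (Ahcy with Gm4737, both Gcat records, a mean effective length). Of these, 5 reversed and 17 of the values without a test moved beyond the replicate spread. The other 90 kept the direction of a ratio or came near the main count, which does not mean that sizes held. For the order of the members that count was of neighbour pairs keeping their order, and the order itself changed in most settings. With Gm4737 added, Ahcy moved from last to first. Rescaling TPM without the genes shorter than 100 nt in effective length raised each member's TPM by 2.71 to 2.73 times and accounts for 10 of those that moved. The Shmt2 to Shmt1 log2 ratio, -0.065, became 0.015 per annotated length and 0.80 without length scaling, and ran from -0.20 to 0.12 across the sets that each left out one replicate. The Mthfd2 to Mthfd1 log2 ratio, -0.24, became 0.043 without length scaling and -0.23 with counts over mean effective length. The Ahcy to Mat2a log2 ratio, -3.13, became -3.55 without length scaling and 0.96 with Gm4737 added. Without length scaling the log2 ratio of Tdh to Gcat went from 1.58 to 2.21 and that of Tdh to Gldc from 3.42 to 2.18. In CPM, which has no length scaling, the order of the members became Mat2a, Tdh, Shmt2, Mthfd2, Mthfd1, Phgdh, Shmt1, Gldc, Gcat and Ahcy. The members' median difference from expressed genes, 2.54, became 2.72 with a pseudocount of 0.1, 5.24 without a filter, 3.00 in CPM, 3.17 without short genes in the scaling and 2.67 with Gm4737 added to Ahcy, and ran from 2.47 to 2.58 with one replicate left out. Apart from changes built into the unit or the sum, the cause was not tested. The number of members varying was 0 under every alternative run. At a TPM limit of 5, 9 of 10 members and 29 of 47 pathway genes (40 at a limit of 1) reached it. The share of all genes at a limit of 5 was not computed, so these counts have no background beside them. The member under that limit was Ahcy at 4.99 TPM, a level that depends on how reads were divided with Gm4737. Depth limits genes near the floor of 3 counts, and gives no order between Sds, Sdsl and Mat1a.

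No paired analysis was possible because the RNA-seq libraries form 1 group and no second group was compared with it.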
